A study of Danio rerio with 6 samples.

Results

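The annexin family was read by 11 probes of 9 genes, out of 15885 gene probes and 5238 named genes on the array, in RNA of the olfactory rosettes, the feathered folds of sensory tissue in the nose of the fish. The probes were found by name, as those whose gene symbol in the platform annotation begins with anxa. They report anxa1b, anxa1c, anxa3b, anxa5b, anxa6, anxa11b and anxa13l by 1 probe each, and anxa11a and anxa13 by 2 probes each, told apart here by their spot numbers. RefSeq's gene table (assembly GRCz12tu) holds 17 annexin symbols of the zebrafish, and the 8 with no named probe, anxa1a, anxa1d, anxa2a, anxa2b, anxa3a, anxa4, anxa5a and anxa14, were not analysed here. The family as a whole was selected on the measured intensity of 1 member, anxa13l, which had been seen to differ between the mutant and wild-type arrays. The difference of anxa13l is therefore given as a description, with no test, and the count of annexin calls supports nothing. The other 10 probes entered by name alone.

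The samples were 3 from Rag1 homozygous mutants and 3 from wild type siblings, all of them untreated zebrafish (Danio rerio), mixed male and female, 1 to 2 years old. Rag1 acts in the recombinase that joins the segments of antigen receptor genes in lymphocytes. The labels used here name neither the allele nor how many fish went into a sample, so a p-value reflects sample-to-sample spread that could be purely technical. Mutant array 2 carries a conflicting source label (wild type), and was placed by its title and strain with the mutants.

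Annexins are soluble proteins that attach to phospholipid membranes when calcium rises. A conserved core of repeats carries the calcium sites, and a variable tail at the amino end binds partners such as small calcium-binding proteins of the S100 group. In mammals the family is known for membrane traffic, resealing of torn membranes, transport in epithelial cells and, for annexin A1, restraint of leukocyte recruitment.

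Each sample was hybridised to 1 array in 1 colour. Before normalization the median gene spot was 4.75 to 7.21 times as bright as the median blank spot of its array, and 96.3% to 99.53% of probes lay above the 95th percentile of the blank spots. Across probes, the lowest correlation of an array with another of its group was 0.981 to 0.985. Of the olfactory sensory neuron markers looked for, the channel gene cnga2, the G protein subunit gene gng13b and the transcription factor gene ebf2 were on the array under a name, 3 of 13, and all 3 exceeded the blank spots on every array. The number of arrays limits the precision.

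Each of the 11 annexin probes exceeded the blank spots on every array, and all 11 were tested. The brightness of a spot depends on its probe as well as on its transcript, so the genes were not ranked by it, and each was set only against the blank spots. In multiples of the median blank spot, anxa1b read 70.5 to 311.3, anxa1c 63.6 to 146.9, anxa5b 52.6 to 108 and anxa3b 24.4 to 53.2 over the 6 arrays. The anxa13 probes read 17.5 to 33.8 (spot 13236) and 6.49 to 14.5 (spot 15217), and the anxa11a probes 3.75 to 14.9 (spot 3750) and 7.17 to 12.4 (spot 15421). The anxa11b probe read 2.98 to 10.5. Every reading of these 7 genes was thus at least 2.98 times the median blank spot, while anxa6 read at most 1.28 times it. No annexin spot was at the scanner's ceiling, and the brightest, anxa1b on a mutant array, stood at 71.4% of it.

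**Figure D1:**
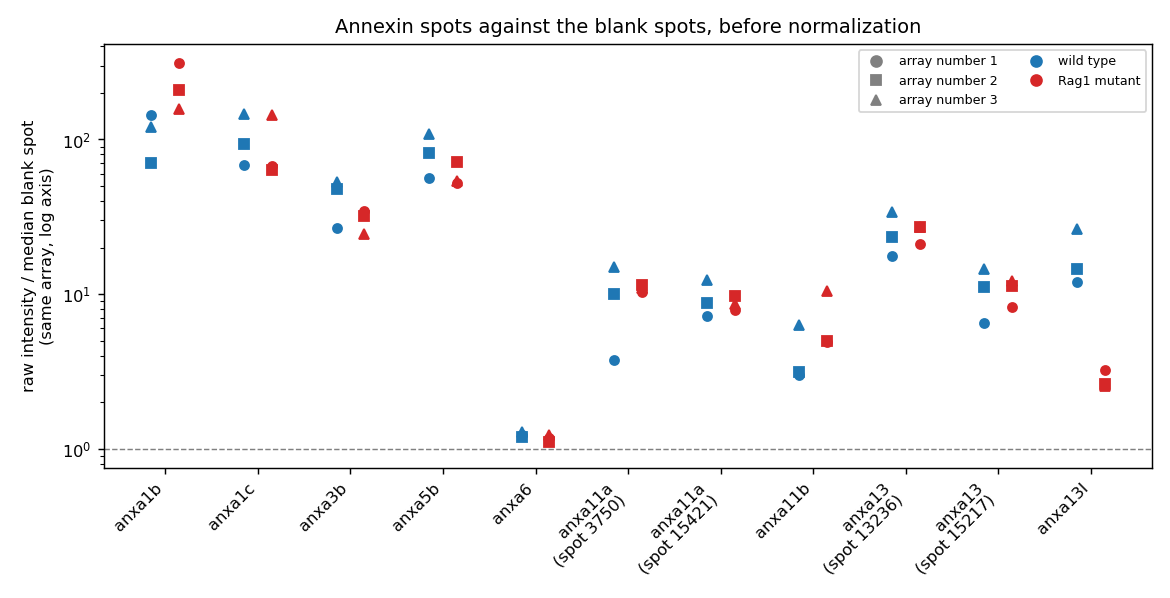
Raw spot intensity of the 11 annexin probes divided by the median blank spot of the same array (log axis, dashed line at 1), with 1 point per array, wild type in blue and Rag1 mutant in red, and the marker shape giving the array number. The anxa6 points lie at or under 1.28, and the anxa13l points at 12.1 to 26.4 in wild type and 2.52 to 3.23 in the mutants.

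Setting mutants against their siblings asks which transcripts of the olfactory organ differ when Rag1 is mutated. Values below are normalized intensities on the log2 scale, and each difference is the mutant mean minus the wild-type mean with its standard error, from limma fitted over all 15611 probes that passed the filter on dim probes. Of these, 4.79% passed a Benjamini-Hochberg adjusted p of 0.05, 2.43% with the higher mean in the mutants and 2.36% with the lower. Of the 11 annexin probes 1 is in that count, anxa13l, on which the family was selected, so nothing is read from it. Of the other 10 probes 0 passed in limma, and 2 of them, anxa1b and anxa11b, had an unadjusted p under 0.05. With the array number as a replicate block both of these passed in limma, where 7.16% of all probes did. The share of all probes with an unadjusted p under 0.05 was not counted, so unadjusted counts here and below are description only. The mutant mean was the higher for 6 of the 11 probes and the lower for 5. The median difference was 0.03 over the annexin probes and 0.01 over all probes tested. Without anxa13l, the median size of the difference was 0.25, against 0.19 for all probes.

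**Figure D2:**
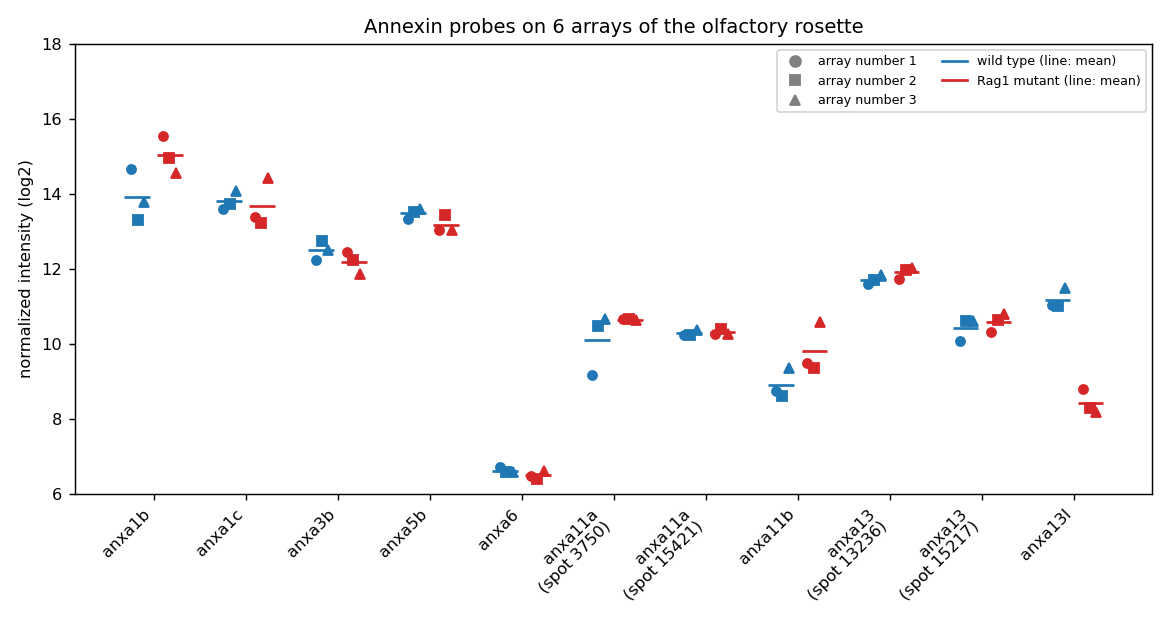
Normalized intensity (log2) of the 11 annexin probes on 6 arrays, with wild type in blue, Rag1 mutant in red, marker shape for the array number and a line at each group mean. For anxa13l the wild-type points lie at 11.02 to 11.49 and the mutant points at 8.20 to 8.79, and for all but anxa13l and anxa11b the groups overlap.

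anxa13l encodes a protein like annexin A13, which in mammals is an annexin of epithelial cells tied to membranes by a lipid anchor. Its probe read 11.04, 11.02 and 11.49 on the wild-type arrays, in the order of their numbers, and 8.79, 8.28 and 8.20 on the mutant arrays. All 3 mutant arrays lay below all 3 wild-type arrays, as was so in one direction or the other for 25.7% of all probes. The mean went from 11.18 (SD 0.27, n = 3) to 8.42 (SD 0.32, n = 3), a difference of -2.76 (SE 0.21), or 6.77-fold lower in the mutants.

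Before normalization the anxa13l spot had 12.1, 14.6 and 26.4 times the blank level on the wild-type arrays and 3.23, 2.62 and 2.52 times that level on the mutant arrays. The mutant spots were thus dim but not at the blank level, and the lowest normalized values above the blank spots were 6.13 to 6.19 on those arrays. The ratios in the authors' deposited value table, which are centred on each probe's median, were 1.62, 1.68 and 2.32 in wild type and 0.381, 0.275 and 0.266 in the mutants, with the same separation. The pixels of the anxa13l spots were more uneven than those of the typical gene spot. Their standard deviation was 0.639 to 0.751 of the mean on the wild-type arrays and 0.426 to 0.564 on the mutant arrays, where the median gene spot of an array had 0.257 to 0.284. Some other annexin spots were also more uneven than that, such as anxa13 at spot 13236 (0.468 to 0.531) and anxa5b (0.430 to 0.467). Others were less so, such as anxa1c (0.167 to 0.217). The anxa13l difference ranged from -2.94 to -2.60 when 1 array, or both arrays of number 2, was left out. The deposited ratios and this range come from the same arrays on which anxa13l was selected, so they are description and add no support.

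In the same samples marker genes of several cell types also differed, and their part in the anxa13l difference was not tested. In a whole organ, fewer cells of a type and less RNA per cell cannot be told apart. The marker lists were chosen with earlier results of these data known, so their counts here and in the next paragraph are description only. Of 7 macrophage and 6 neutrophil genes measured, 5 and 4 rose, where 2.79% of all genes did, each gene standing by its brightest probe. Their summed normalized intensity, in units of 1000, was 83.1 to 92.0 in wild type and 102.5 to 117.7 in the mutants for macrophages, and 3.50 to 3.96 and 10.6 to 28.2 for neutrophils. Of 3 sensory neuron genes 2 fell, cnga2 and gng13b (2.17% of all genes fell), and the summed level was 49.3 to 59.2 in wild type and 27.2 to 34.0 in the mutants. For all 3 of these lists the sums did not overlap between the groups, and how often such sums fail to overlap was not counted. The sensory neuron sum was mostly gng13b, and the neutrophil sum in the mutants was mostly lyz, so these sums largely repeat single bright genes. The macrophage sum was mostly cd74a, an antigen presentation gene whose spot stood at 99.0% to 100% of the scanner's ceiling on every array, and without it, a choice made after seeing the data, the other 6 genes summed to 19.0 to 26.5 in wild type and 37.6 to 52.3 in the mutants.

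Of 13 surface epithelium genes 1 fell, the desmosome gene pkp1b (-1.36, SE 0.28, limma adjusted p = 0.0400). That value is from the brighter of its 2 probes, and the other is not given here. The summed level of the 13 genes was 227.0 to 264.7 in wild type and 244.5 to 247.4 in the mutants, so the groups overlapped. Of the 2 ionocyte and mucous cell genes and the 7 matrix and fibroblast genes measured 0 passed in limma (1 and 4 at an unadjusted p under 0.05). Their sums were 16.8 to 22.8 and 27.9 to 30.6 in wild type and 10.5 to 16.1 and 16.4 to 25.5 in the mutants, and neither sum overlapped. How often such sums fail to overlap was not counted, for these lists or for the red blood cell genes below. Of those 4 matrix and fibroblast genes, 2 collagen genes had the lower mean in the mutants (-0.68 and -0.59) and made up most of the sum. The other 2, dcn (0.84) and vim (0.52), had the higher mean. The ionocyte and mucous cell sum was mostly ca2 (-0.56), and at agr2 (-0.13) the groups overlapped. Of 4 endothelial genes 0 passed in limma and 2 did unadjusted, 1 of them with the lower mean in the mutants. Their sums overlapped, at 1.55 to 1.65 in wild type and 1.35 to 1.63 in the mutants. Of 5 red blood cell genes 1 rose, the carbonic anhydrase gene cahz, 4 had an unadjusted p under 0.05, and all 5 had the higher mean in the mutants (median difference 1.19). Their sums, 15.6 to 21.1 in wild type and 26.4 to 67.5 in the mutants, did not overlap. These sums were almost wholly the haemoglobin genes hbaa1 and hbba1, neither of which passed (limma adjusted p = 0.0556 and 0.117). Every marker gene measured exceeded the blank spots on every array. The endothelial gene kdrl, however, read only 6.17 to 6.62 over all arrays. The lowest normalized values above the blank spots were 6.10 to 6.29. So close to the blank level, the kdrl probe can show little of any difference in its transcript.

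The gene anxa13, whose product is the namesake relative of anxa13l, was read by 2 probes, and both had slightly higher means in the mutants. Spot 13236 read 11.59, 11.71 and 11.85 in wild type and 11.73, 11.96 and 12.03 in the mutants, a difference of 0.19 (SE 0.14, 95% interval -0.13 to 0.51, limma adjusted p = 0.503). Spot 15217 read 10.08, 10.62 and 10.61 in wild type and 10.32, 10.64 and 10.80 in the mutants, a difference of 0.15 (SE 0.20, 95% interval -0.31 to 0.61, adjusted p = 0.747). The groups overlapped at both probes, and neither passed. At spot 15217 the difference was -0.03 without wild-type array 1. Whether the probes of anxa13 and anxa13l each detect only their own transcript was not tested.

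Annexin A1 in mammals is a glucocorticoid-induced protein that limits the entry of leukocytes into inflamed tissue. Zebrafish carry several genes of this kind, and anxa1b and anxa1c, both on the array, are adjacent genes in RefSeq's gene order. The anxa1b probe read 14.66, 13.32 and 13.78 in wild type and 15.55, 14.97 and 14.57 in the mutants. The groups overlapped, since wild-type array 1 stood above mutant array 3. The difference was 1.11 (SE 0.37, 95% interval 0.25 to 1.98), a 2.16-fold higher mean in the mutants that did not pass (limma adjusted p = 0.140).

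Arrays of the same number deviated together from their group means, and for anxa1b this bears on the call. Mutant arrays 1 to 3 exceeded wild-type arrays 1 to 3 by 0.89, 1.65 and 0.79, so that all 3 differences had the same direction. That was so, in one direction or the other, for 6 of the 11 annexin probes, both anxa13 probes and anxa5b among them. The share over all probes was not counted. With the array number as a replicate block, anxa1b had an SE of 0.19 and an adjusted p = 0.0352 in limma, and it passed, where 3.49% of all probes did with the higher mean in the mutants. The titles number the second array of both groups but not every other one in the same words, and they name nothing that arrays of 1 number share, so the pairing is a hint from the data and not part of the stated design. Without a block the adjusted p was 0.0523 when wild-type array 1 was left out (difference 1.48) and 0.318 when wild-type array 2 was (0.81). The markers of neutrophils and macrophages given above were also higher on the mutant arrays, and their part in the anxa1b values was not tested.

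The neighbouring gene anxa1c did not share this. Its probe read 13.60, 13.74 and 14.07 in wild type and 13.39, 13.23 and 14.43 in the mutants. Mutant array 3 was the highest of the 6 and mutant array 2 the lowest, so the groups overlapped fully. The difference was -0.12 (SE 0.31, 95% interval -0.84 to 0.61, limma adjusted p = 0.887), and its sign changed with the arrays, from -0.49 without mutant array 3 to 0.11 without mutant array 2. The difference between anxa1b and anxa1c was not tested.

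Annexin A11 is a long-tailed member that, in mammals, binds the calcium sensor PDCD6 and ties RNA granules to lysosomes for transport. Its zebrafish gene anxa11b read 8.75, 8.61 and 9.35 in wild type and 9.50, 9.35 and 10.57 in the mutants. The groups did not overlap, but the gap between wild-type array 3 and mutant array 2 was only 0.0026. The difference was 0.90 (SE 0.34, 95% interval 0.10 to 1.70), a 1.87-fold higher mean that did not pass (limma adjusted p = 0.187). Within the numbers 1 to 3 the mutant array was higher by 0.75, 0.74 and 1.23, and 6 of the 11 annexin probes kept 1 direction in this way. With the array number as a replicate block the SE was 0.15 and the adjusted p = 0.0301 in limma, so anxa11b passed there. Without mutant array 3, which was the highest of the 6 by more than 1 log2 unit, the difference was 0.52 with no block.

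The other gene of this type, anxa11a, gave readings that differed between its 2 probes. Spot 3750 read 9.17, 10.47 and 10.66 in wild type and 10.66, 10.65 and 10.64 in the mutants. Wild-type array 1 alone stood apart, and the 3 mutant arrays lay within an SD of 0.0099. The difference was 0.55 (SE 0.36, 95% interval -0.28 to 1.39, limma adjusted p = 0.452), or 0.09 without wild-type array 1. Spot 15421 read 10.24, 10.24 and 10.37 in wild type and 10.26, 10.41 and 10.26 in the mutants, a difference of 0.03 (SE 0.12, 95% interval -0.25 to 0.30, adjusted p = 0.945). The low reading of wild-type array 1 at spot 3750 was not shared by spot 15421, which had the smallest pooled spread within groups of the 11 annexin probes (SD 0.079, against a median of 0.20 over all probes).

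The annexin A5 and A3 genes had the higher mean in wild type. Annexin A5 binds phosphatidylserine, the lipid exposed by dying cells, and the anxa5b probe read 13.32, 13.53 and 13.59 in wild type and 13.05, 13.43 and 13.04 in the mutants. The groups overlapped at mutant array 2, and the difference of -0.31 (SE 0.15, 95% interval -0.67 to 0.05) did not pass (limma adjusted p = 0.314). Annexin A3 is abundant in neutrophil granules of mammals. The anxa3b probe read 12.23, 12.74 and 12.51 in wild type and 12.46, 12.23 and 11.87 in the mutants, a difference of -0.31 (SE 0.20, 95% interval -0.77 to 0.15, adjusted p = 0.442). Its groups overlapped, and the direction between arrays of the same number was 0.23, -0.52 and -0.64. The difference was -0.15 without mutant array 3 and -0.18 without wild-type array 2.

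Annexin A6 differs from the rest of the family in carrying a duplicated core, and in mammals it acts at endosomes and the plasma membrane. Its zebrafish probe read 6.72, 6.58 and 6.58 in wild type and 6.47, 6.39 and 6.62 in the mutants. These values lay just above the lowest normalized values that exceeded the blank spots, 6.10 to 6.29 over the 6 arrays. The difference was -0.13 (SE 0.12, limma adjusted p = 0.629), and so close to the blank level the probe can show little of any difference in the transcript.

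**Figure D3:**
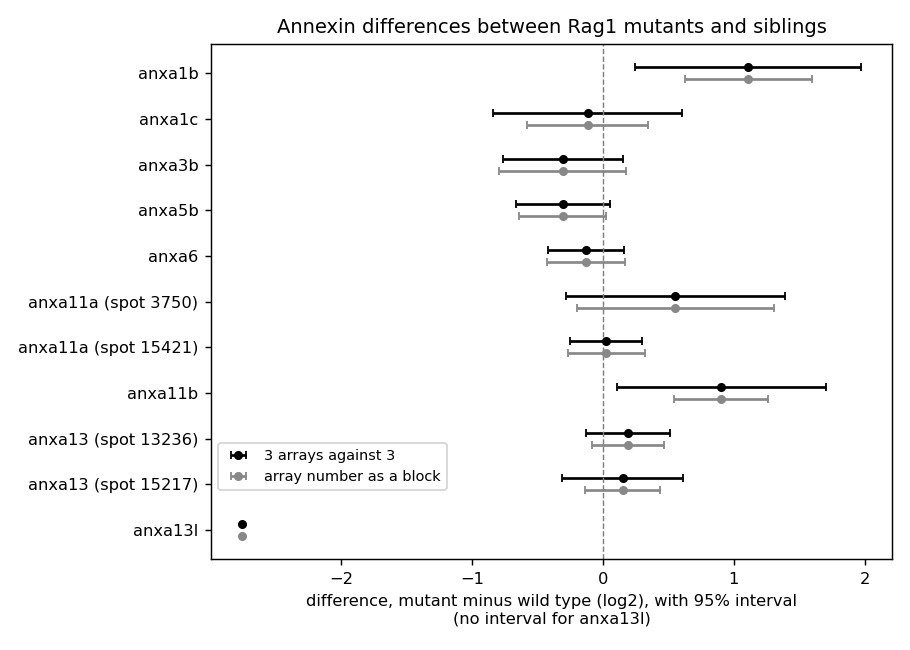
Difference between Rag1 mutants and wild-type siblings (log2) for each annexin probe, with 95% intervals from limma over 3 arrays against 3 (black) and with the array number as a block (grey). The points of anxa13l, on which the family was selected, lie at -2.76 and carry no interval. The intervals of anxa1b and anxa11b lie above 0 in both fits, and those of the other 8 probes include 0. The intervals are not adjusted for the number of probes tested, and without the block neither anxa1b nor anxa11b passed the adjusted threshold.

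The members also differed in how steady they were within a group. The pooled standard deviation within groups was 0.60 for anxa1b, 0.57 for anxa11a at spot 3750, 0.55 for anxa11b and 0.49 for anxa1c, each well above the median of 0.20 over all probes. It was 0.30 for anxa13l, 0.28 for anxa3b and for anxa13 at spot 15217, 0.19 for anxa5b, 0.14 for anxa13 at spot 13236 and 0.10 for anxa6. The probes with the larger differences other than anxa13l were thus also among those that varied most between arrays of 1 group. Several differences leaned on 1 array or on more. For anxa11a at spot 3750 the difference fell to 0.09 without wild-type array 1, and for anxa11b to 0.52 without mutant array 3. For anxa3b it was -0.15 without mutant array 3 and -0.18 without wild-type array 2. For anxa1c its sign changed without wild-type array 3, without mutant array 1 and without mutant array 2.

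**Figure D4:**
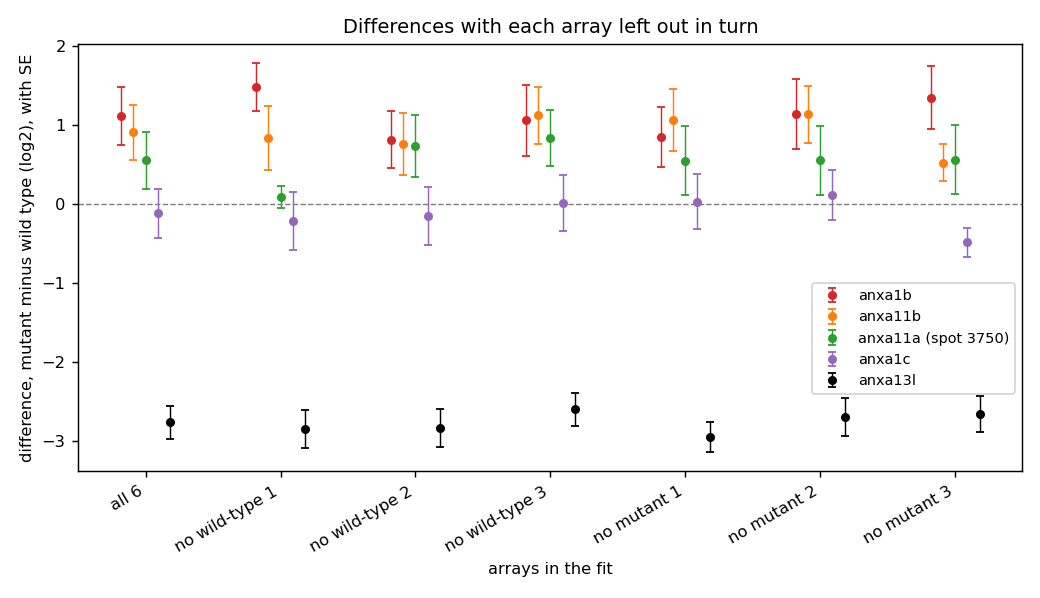
Difference, mutant minus wild type (log2, with standard error), for 5 annexin probes with all 6 arrays and with each array left out in turn. The points of anxa13l lie between -2.94 and -2.60, but the family was selected on it in these arrays, so its steadiness supports nothing. The anxa11a difference at spot 3750 falls to 0.09 without wild-type array 1, and that of anxa11b to 0.52 without mutant array 3.

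Genes known to work with annexins were sparse on the array. Of 41 listed for binding annexins or for related calcium-dependent work at membranes, 11 had a named probe, and 1 of them rose and 0 fell by limma's adjusted p (4 of the 11 had an unadjusted p under 0.05), where 4.95% of genes passed in either direction. The one that rose was pdcd6, the calcium sensor that binds annexin A11. It read 11.79, 11.65 and 11.90 in wild type and 12.50, 12.64 and 12.54 in the mutants, with no overlap, and a difference of 0.78 (SE 0.12, 95% interval 0.49 to 1.07, adjusted p = 0.0174). The call ended when wild-type array 2 or any mutant array was left out, with adjusted p values of 0.0512 to 0.0687, and the difference then stayed between 0.71 and 0.81. Without both arrays of number 2, pdcd6 was at 0.68 and did not pass (limma adjusted p = 0.161). Its partner in membrane repair, pdcd6ip, was at 0.10 (SE 0.14, adjusted p = 0.767).

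The rest of that list had values on both sides of 0. The scaffold gene ahnak, whose product joins the annexin A2 complex in mammals, was at -0.70 (SE 0.24, limma adjusted p = 0.148). The S100 genes s100v1 and s100u were at 0.50 and 0.31, sorcin (sri), a calcium-binding protein that binds annexin A7 in mammals, at 0.44, and the phospholipase A2 gene pla2g4aa at 0.32. Of the remaining genes, capns1b was at -0.28, trpm7 at -0.20, capn2a at -0.006 and cpne1 at 0.215, and none passed. The median over the 11 genes was 0.21, against 0.01 over all named genes, and 7 of the 11 were above 0.

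Across the 6 arrays the 5 named probes with the highest Pearson correlation with anxa13l, out of 5556 named probes, were dlx3b (r = 0.994), anos1a (0.992), aebp1a (0.991), xkr4 (0.990) and sppl2 (0.990). These points share arrays and are split by group, so any probe with steady group means that is lower in the mutants ranks high. Of the 5, sppl2, an intramembrane protease gene, differed by nearly as much as anxa13l. It read 11.47, 11.57 and 11.77 in wild type and 9.04, 8.67 and 9.05 in the mutants, a difference of -2.68. The homeobox gene dlx3b, the anosmin gene anos1a, aebp1a and xkr4 had differences of -0.52 to -0.74. On the mutant arrays aebp1a read 6.27 to 6.32, close to the lowest normalized values above the blank spots there (6.13 to 6.19), so its difference may be understated. Among annexins the correlation with anxa13l ran from -0.70 (anxa11b) to 0.70 (anxa5b).

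In RefSeq's gene order the nearest gene with a named probe on either side of anxa13l was dvl3a, with 2 genes between, at -0.21 (SE 0.17, limma adjusted p = 0.563), and zgc:55943, with 4 between, at 0.23 (SE 0.13). Neither passed. Over all 9 annexin genes 16 such neighbours that are no annexins were tested, a comparison chosen after the annexin values were known, and 0 passed in limma, with 1 at an unadjusted p under 0.05. The largest difference among them was 0.61 in size.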

How the data were processed

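The deposited scanner tables give 1 raw intensity and 1 local background per spot, neither subtracted nor normalized, per the file headers. RNA was labelled by in vitro transcription, per the labels. Scanner and software: not given in the sources used here. Intensities were divided by 100, corrected with normexp (offset 50), reduced to 15885 probes and quantile normalized on the log2 scale in limma 3.58.1 (R 4.3.3). A print block of 400 spots, read 1 row off on wild-type array 2 (r = 0.241 in place, 0.981 a row on), was left out. Probes had to exceed the 95th percentile of 2707 blank spots on every array of at least 1 group. Groups were compared with lmFit and eBayes, 2-sided, with Benjamini-Hochberg adjustment over 15611 probes. The fit was tested on simulated data with independent noise and with shifts larger than any annexin difference tested here. That simulation does not cover smaller differences or arrays that deviate together.

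Per probe and sample, the value table holds a ratio made by the authors, centred on each probe's median, with column medians of 0.955 to 1.03 and unknown scaling between arrays. It served as an alternative, on the log2 scale.

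Arrays of the same number deviated together (correlation of deviations 0.317, 0.223 and 0.284 for numbers 1 to 3, against -0.251 to -0.0676 between unlike numbers). Deviations from a group mean cancel out within the group, so some pairs of arrays must correlate positively under any numbering. Titles give number 2 in both groups and 3 in the wild type, and the other numbers follow listing order. Members and lists were chosen with earlier results of these data known. All annexin probes were named, as were partner genes past the threshold and 4 others with a role in the text (the remaining partner genes measured were added after their values were seen), the 5 probes most like anxa13l, and at most 3 markers a list. A gene in a list stood by its brightest probe. Annexin proteins were not compared here.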

Additional observations from a re-analysis of the deposited data

How the results depend on the processing

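With 1 array, or both arrays of number 2, left out, the count of all probes past the threshold (747) ranged from 80 to 598. The count of annexin probes was 1 throughout, always anxa13l, on which the family was selected, so its steadiness supports nothing. The partner list kept 0 to 1 call. The anxa13l difference ranged from -2.94 to -2.60 there and was -2.36 without background correction, which raises the floor under dim spots by construction. Signs changed only in these left-out settings, for anxa1c (-0.49 to 0.11), anxa11a at spot 15421 (-0.043 to 0.067) and anxa13 at spot 15217 (-0.030 to 0.28). With the array number as a replicate block 1117 probes passed, 3 of them annexins (anxa1b, anxa11b and anxa13l, which selected the family and supports nothing). The other normalizations, offset, filters, the deposited table, the misread block and the intensity trend left the annexin count at 1, again anxa13l, with 565 to 947 probes in all. The anxa6 difference cannot be resolved so near the blank spots. The cause of these changes was otherwise not tested.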
